A study of Mus musculus with 9 samples.

Results

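The long non-coding RNAs (lncRNAs) of untreated β-TC6 cells are described here from the 3 control libraries among the 9 of the series. The labels describe β-TC6 as an insulin-secreting line that came from an insulinoma of transgenic mice. The libraries are labelled untreated, and it is unstated whether these cells received the albumin that was given with the fatty acids in the other groups. The 3 libraries, numbered control 1, control 2 and control 3, were chosen by that label alone, and no treated library was used. All came from cells kept in Dulbecco's modified Eagle's medium with fetal bovine serum, streptomycin, penicillin and bicarbonate. RNA was total RNA depleted of ribosomal RNA, and the library kit was a directional one. The labels do not call the 3 libraries separate cultures, so the spread between them may be technical. With 1 group and 3 libraries no group comparison exists, and a two-sided sign-flip test over 3 libraries cannot go below 0.25, so values are given as mean ± SD (n = 3) or per library without a test.

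The lncRNA table lists 15589 transcripts at 9635 loci, and 9216 of the transcripts had a count above 0 in at least 1 control library. The counts are expected counts, that is, reads shared out among overlapping transcripts, and they summed to 1839123, 2103773 and 2870275 in controls 1, 2 and 3. At these depths 3 counts correspond to between 1.05 and 1.63 CPM (counts scaled to the same lncRNA total in each library). Messenger RNAs are not in this table, so the identity of the line was looked at only through lncRNAs that lie at β-cell genes, described further on.

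A lncRNA is a transcript longer than the classical small RNAs that is not translated into a protein. Some lie alone between genes, some run antisense to a coding gene and some lie inside an intron. In β cells, lncRNAs transcribed beside genes for islet transcription factors and hormone processing are known as markers of islet identity, and Malat1 and Neat1 are abundant nuclear lncRNAs of most tissues. Small structural RNAs are a different class with housekeeping roles. The 7SL RNA is the scaffold of the signal recognition particle, which brings nascent secretory proteins to the endoplasmic reticulum. The 7SK RNA holds the elongation factor P-TEFb inactive, the U1 and U2 small nuclear RNAs recognise the splice site and the branch point of introns, and the U3 small nucleolar RNA takes part in cleavage of the ribosomal RNA precursor.

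The single most counted transcript of these cells, and 7 of the 20 with most counts, lay over genes of such small structural RNAs. Spans of the top 20 transcripts, ranked by counts, by FPKM or by FPKM with short transcripts left out, held 16 such genes of GENCODE M21 (GRCm38). Of these, 14 aligned over at least 100 bases and with at least 90% identity to a named gene of 5 families (7SL, 7SK, U1, U2 and U3). A 7SK, a U1 and a U2 gene are printed here from GENCODE M21, each on its own strand, since these sequences show what lies under several of the highest values of the table; of Gm26315 the first 300 bases are shown. Capitals mark bases that differ from the named family gene or lie outside the aligned stretch, and bases missing relative to that gene are not marked. Rn7s6 on chromosome 6 is 291 bases long and matched the 7SL gene Rn7s1 at 211 of 214 aligned positions. Its other 80 bases differ from Rn7s1 or lie outside the aligned stretch, which is the first part of the gene. Gm26315 lies at chr2:7076094-7076414 on the minus strand and matched the 7SK gene Rn7sk at 237 of 238. Gm25679 lies at chr12:54719163-54719326 on the minus strand and matched the U1 gene Rnu1b1 at 158 of 165. Gm23472 lies at chr1:72236946-72237136 on the plus strand and matched the U2 gene Rnu2-10 at 190 of 191.
Gm26315: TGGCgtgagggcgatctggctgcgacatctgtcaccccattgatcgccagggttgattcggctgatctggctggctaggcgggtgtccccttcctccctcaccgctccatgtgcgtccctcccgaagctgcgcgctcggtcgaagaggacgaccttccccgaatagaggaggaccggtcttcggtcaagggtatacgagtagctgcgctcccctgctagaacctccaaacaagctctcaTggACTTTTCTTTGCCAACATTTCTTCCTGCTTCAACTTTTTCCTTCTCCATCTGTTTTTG
Gm25679: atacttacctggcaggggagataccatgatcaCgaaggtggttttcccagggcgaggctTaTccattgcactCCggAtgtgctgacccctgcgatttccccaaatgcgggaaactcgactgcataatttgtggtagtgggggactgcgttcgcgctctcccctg
Gm23472: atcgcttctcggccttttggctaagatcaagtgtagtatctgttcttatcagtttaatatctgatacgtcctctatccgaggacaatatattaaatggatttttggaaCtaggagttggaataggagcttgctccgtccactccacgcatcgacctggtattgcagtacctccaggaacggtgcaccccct

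The run of capitals at the 3′ end of Gm26315 shows that this copy shares only its first part with Rn7sk. The U1 and U2 copies matched their family gene from end to end. Over the aligned stretch each gene named here closely matched another gene, that of its family, so reads there cannot be assigned to 1 copy with certainty. The genome was not searched for further copies. Exon coordinates of the assembled transcripts were not used here, so an overlap means that the gene lies inside the span of the transcript, not that the 2 share exons.

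One transcript held more lncRNA counts than any other by a wide margin. TCONS_00215072 has 3 exons, spans chr6:69493991-69557239 on the plus strand (mm10), is classed as intergenic and is not among the known lncRNAs, and contains Rn7s6 on its own strand. Its expected counts were 337510, 496894 and 716653 in controls 1, 2 and 3, or 18.4%, 23.6% and 24.97% of each library. Control 1 was the lowest, and the transcript was first in all 3 libraries. All 6 transcripts whose spans hold Rn7s6 together took 23.2 ± 3.63% of the counts.

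Next came Gm26565, a known lncRNA in an intron of Celf2, which codes for an RNA-binding splicing factor. Of its transcripts, TCONS_00135684, TCONS_00135682 and TCONS_00135680 were all in the top 20 and took 4.001 ± 0.579%, 3.26 ± 0.305% and 1.22 ± 0.0811% of counts. Their spans contain the 7SK copy Gm26315 on the opposite strand. The 7 transcripts over Gm26315 took 7.75%, 8.55% and 9.14% of counts in controls 1, 2 and 3, again lowest in control 1.

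The U2 and U1 copies followed the same order of libraries. The 7 transcripts whose spans hold any of the 4 matched U2 genes, among them those of D230017M19Rik on chromosome 1, took 2.57%, 3.70% and 4.23% of counts. The 7 transcripts over the 7 matched U1 genes took 1.96%, 2.85% and 3.28%. One of them, TCONS_00056318 on the minus strand, starts at chr12:54738622, the first base of Gm22317, a further U1 copy. It ends at chr12:54719163, the last base of Gm25679. Over the matched genes of the 5 families the share in control 3 was between 1.18 times (7SK) and 1.68 times (U1) that in control 1. These genes were taken only from spans of the top transcripts, so copies under other transcripts are left out.

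Not every abundant transcript lay over such a gene. TCONS_00110148 of Gm26917, at chr17:39845074-39846245, took 3.28%, 3.40% and 3.15% of counts and ends 109 bases before Rn18s-rs5, a copy of 18S ribosomal RNA in RefSeq (GRCm38.p6). Whether reads of the ribosomal RNA precursor are counted there was not tested, so it may not be a separate lncRNA. All 8 Gm26917 transcripts took 3.898 ± 0.147%. Gm13710 on chromosome 2 (TCONS_00146446) took 2.78 ± 0.295%, TCONS_00052777 on chromosome 12, which overlaps Gm26520 on the opposite strand, took 2.39 ± 0.311%, and TCONS_00108016 on chromosome 17, which carries no gene symbol, took 2.14 ± 0.239%. Each of these last 3 was highest in control 1 as a share of counts. Shares of 1 total move against each other, so this order is not independent of that over the structural RNA genes. On CPM scaled between libraries by TMM the spread (CV) of these 3 was 1.49%, 4.01% and 2.85%.

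Counts describe reads, not levels per length. Over all transcripts, spans holding a small structural RNA gene on either strand took 34.0%, 42.1% and 45.2% of the counts, and those with such a gene on the same strand took 30.5 ± 5.23%. In number they were 7 of the 20 transcripts with most counts and 9 of the 20 with the highest FPKM, beside 122 of the 3690 transcripts with a mean count of at least 10 (3.31%). Setting aside these spans and Gm26917, the top 10 of the remaining transcripts took 33.4%, 32.4% and 32.7% of the remaining counts, within 1 percentage point of each other.

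The 10 transcripts with the highest mean share took 46.6 ± 3.29% of counts, and the top 10 of each library 43.1%, 47.5% and 49.3%. The number of transcripts needed to reach 50% of counts was 15, 12 and 11, and 90% of counts took 294, 226 and 212 transcripts. With counts summed per locus, 11, 8 and 7 loci reached 50%. Control 1 was the least concentrated by each of these measures.

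**Figure D1:**
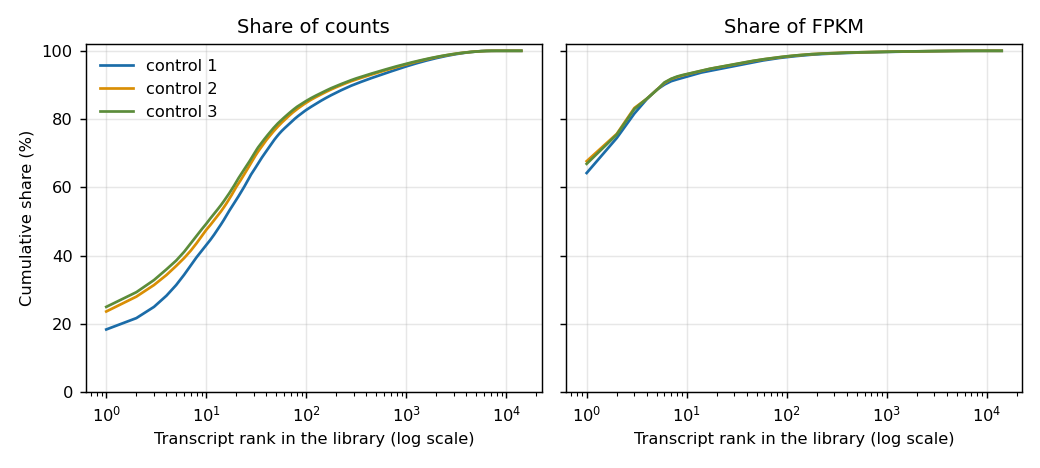
Cumulative share of expected counts (left) and of FPKM (right) against transcript rank on a log scale, one line for each control library. The count curve starts at 18.4% in control 1 and at 23.6% and 24.97% in controls 2 and 3, while the FPKM curves start between 64.2% and 67.7% and pass 90% at the sixth transcript.

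On the FPKM scale, which divides counts by transcript length, the concentration was far higher. TCONS_00215072 had an FPKM of 7971101, 8207520 and 7856981, a spread of 2.23% (CV) against 23.5% for its scaled CPM. It made up 64.2%, 67.7% and 66.9% of all FPKM, and 6 transcripts made up 90% in every library. The divisor behind such values is the effective length. It was recovered here from each count and FPKM. Where the authors' comparison tables give a transcript length and the FPKM was at least 10 (70, 64 and 62 transcripts), it was that length minus a median of 231.3, 220.9 and 212.0 bases in controls 1, 2 and 3. The shortest transcripts did not follow a plain subtraction, since for TCONS_00215072 the divisor was 23.0, 28.8 and 31.8 bases, a smaller gap between libraries than these medians have.

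Short effective lengths held a large part of the signal. The 230 counted transcripts under 50 bases, of which 34 had a mean count of at least 10, took 31.0 ± 4.20% of the counts and 85.7 ± 0.738% of the FPKM. Under 100 bases there were 610, and they took 36.9 ± 4.53% of the counts and 92.5 ± 0.356% of the FPKM. The median FPKM of transcripts with a mean count of at least 10 was 330 under 50 bases and 4.84 between 2000 and 5000 bases. FPKM ranks among the top transcripts of this table therefore carry the divisor as well as the reads.

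On the CPM scale the shortest transcripts shifted together between libraries. From control 1 to control 3 the median difference in log2(TMM-scaled CPM + 1) was 0.49 under 50 bases, 0.22 between 50 and 100 bases, 0.030 between 200 and 500 bases and -0.13 at 5000 bases or more. From control 1 to control 2 it was 0.27 under 50 bases, -0.030 between 50 and 100 bases and -0.092 at 5000 bases or more. Spread without regard to sign did not follow this order, as the median CV was 25.1% under 50 bases and 30.3% between 1000 and 2000 bases. The median difference in log2(FPKM + 0.1) from control 1 to control 3 was -0.12 under 50 bases and between -0.27 and -0.38 in the other bins. Control 1 had the largest subtracted length and the smallest share in short transcripts, and control 3 the reverse; the part of fragment length in the difference was not tested.

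**Figure D2:**
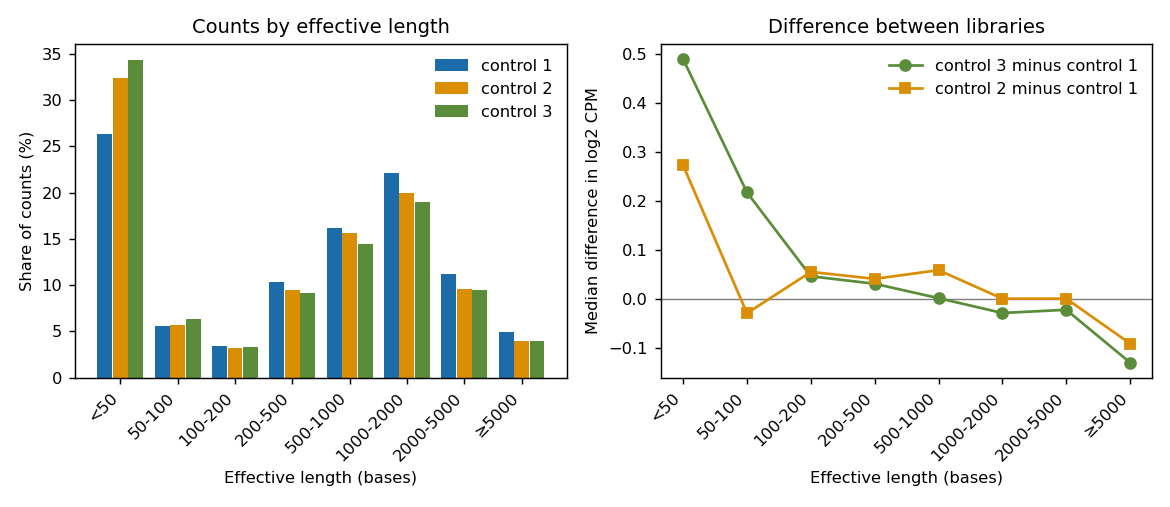
Share of expected counts by effective length in bases for each control library (left) and the median difference in log2(TMM-scaled CPM + 1) of controls 2 and 3 from control 1 in the same bins, over transcripts with a mean count of at least 10 (right). The bin under 50 bases holds 26.3%, 32.4% and 34.3% of counts, and its median difference of control 3 from control 1 is 0.49.

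With at least 200 bases of effective length, the highest FPKM belonged to Gm26917 (TCONS_00110148), at 51515, 52428 and 47910. This is the transcript that ends 109 bases before a copy of 18S ribosomal RNA. TCONS_00239072 on chromosome 7, which carries no symbol, followed with 48125, 41900 and 36514. Malat1, a nuclear lncRNA that is retained at splicing speckles, had TCONS_00130708 (11238 ± 2354) and TCONS_00130709 (9303 ± 1452) among these 20. Gm26917 was the higher of the first 2 in each library, although their ranges over the libraries overlap, and those of the 2 Malat1 pieces overlap as well. Of these 20 transcripts 10 carry no GENCODE symbol, 17 are intergenic and 16 have 2 exons.

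Fewer transcripts were seen in every library than in none. Counts above 0 were found for 6861, 6921 and 7307 transcripts in controls 1, 2 and 3, and 5052 transcripts (32.4%) had them in all 3 libraries. A further 1769 had them in 2 libraries and 2395 in 1, and 6373 (40.9%) were at 0 in all. A mean count of at least 10 was reached by 3690 transcripts (23.7%) at 2660 loci, of at least 100 by 838 (5.38%) and of at least 1000 by 145 (0.930%). The median FPKM of the 3690 was 9.35, 7.96 and 7.54. Control 1 has the highest median, beside the smallest share of counts on the structural RNA spans.

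The table's classes differed in how often their transcripts were counted. A mean count of at least 10 was reached by 1315 of 4306 antisense transcripts (30.5%), 2175 of 10285 intergenic ones (21.1%) and 200 of 998 intronic ones (20.04%). Intergenic transcripts held 75.6 ± 0.289% of counts, antisense ones 14.5 ± 0.728% and intronic ones 9.93 ± 0.750%. The 20 transcripts with most counts shape these shares, because without them antisense transcripts held 29.7 ± 0.690% and intronic ones 3.57 ± 0.383%.

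Per length, antisense transcripts stood slightly above intergenic ones. Among transcripts with a mean count of at least 10 the median FPKM of antisense transcripts was 11.1, 9.56 and 9.29, that of intergenic ones 8.31, 7.38 and 6.91, and that of intronic ones 7.67, 5.85 and 6.41. The antisense minus intergenic difference in median log2 FPKM was 0.40 ± 0.041 and had the same sign in each library. It turned to -1.12 among transcripts with a mean count of at least 100. Intronic minus intergenic was -0.21 ± 0.13, negative in each library.

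Transcripts annotated as known were counted less often over all classes than those the table adds to the annotation (unannotated ones in what follows), but the order turned with the class. Of 4293 known transcripts 720 (16.8%) had a mean count of at least 10, against 2970 of 11296 unannotated ones (26.3%). Known transcripts held 22.6 ± 0.704% of the counts. Their median FPKM was 9.59, 8.14 and 7.20, against 9.27, 7.89 and 7.64 for unannotated ones, and the difference in median log2 FPKM of 0.025 ± 0.051 changed sign between libraries. It was -0.96 among transcripts with a mean count of at least 100 and -0.26 with no minimum. Among intergenic transcripts a mean count of at least 10 was reached by 12.3% of known and 25.7% of unannotated ones. Among antisense transcripts the shares were 38.4% and 29.2%, and among intronic ones 29.9% and 18.2%. How the known mark was set, and from which libraries transcripts were assembled, is unstated.

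Transcripts with more exons had lower FPKM. All transcripts of the table have between 2 and 24 exons, so unspliced lncRNAs are not represented. The median FPKM of 2-exon transcripts was 11.1, 9.08 and 8.87, and it went down through 3, 4 and 5 exons to 5.18, 4.46 and 4.51 at 6 or more. The difference between 3 or more exons and 2 exons was -0.47 ± 0.027 in median log2 FPKM, and -0.093 on the log2 CPM scale, which is not divided by length. The median effective length was 1625 bases with 2 exons and 2432 bases with 6 or more.

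**Figure D3:**
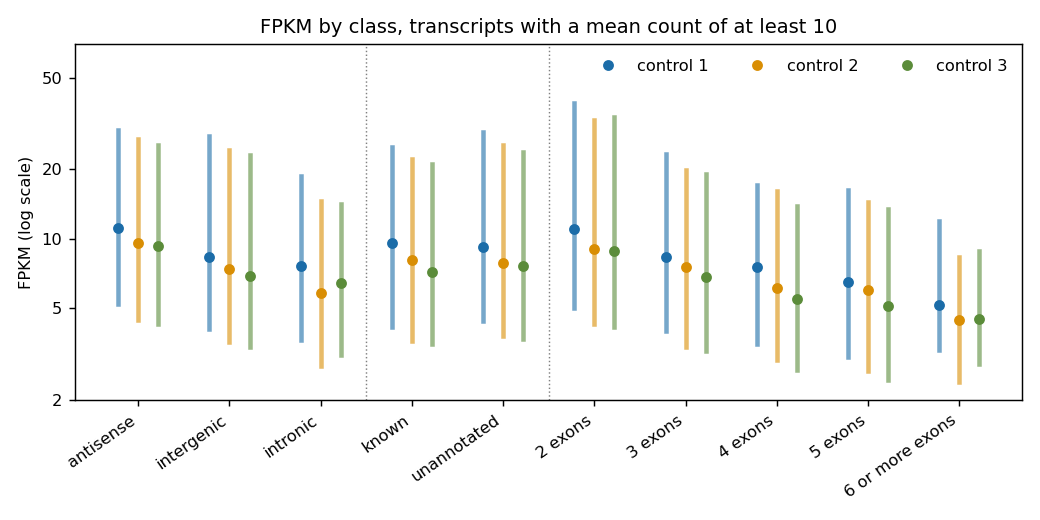
Median FPKM (points) and interquartile range (bars) on a log scale by genomic class, known mark and exon number, for each control library, over transcripts with a mean count of at least 10. Medians fall from 11.1, 9.08 and 8.87 with 2 exons to 5.18, 4.46 and 4.51 with 6 or more. Known medians and those of the rest (labelled unannotated) differ by less within a library than either interquartile range.

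Chromosome 2 carried the most lncRNA loci (794), followed by chromosome 1 (783), and chromosome 18 the fewest (259). The share of counts did not follow the number of loci. Chromosome 6 held 25.998 ± 3.32% of counts, of which TCONS_00215072 made up 85.8%, and without the 20 transcripts with most counts it held 6.03 ± 0.335%. Chromosome 2 held 14.0 ± 0.194%, chromosome 17 9.02 ± 0.562% and chromosome 10 8.52 ± 1.03%. The share of transcripts with a mean count of at least 10 was highest on chromosomes 19 (32.2%) and 17 (31.3%).

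The Y chromosome was listed densely and counted sparsely. It has 756 transcripts at 381 loci, or 208.2 loci per 100 coding genes, and 97.1% of these transcripts are annotated as known. Only 20 (2.65%) had a count above 0 in a control library and 17 (2.25%) a mean count of at least 10. The Y share of counts was 0.253%, 0.270% and 0.219%, and 42.4% of it came from TCONS_00290611, antisense to Gm47283 (1905, 2509 and 2650 counts). TCONS_00290610, TCONS_00290609 and TCONS_00290597 of the same locus took a further 0.0336%, 0.0111% and 0.0093% of all counts on average. Counts assigned to the Y chromosome, a large part of them at this 1 locus, were present in all 3 libraries. Whether this locus shares sequence with the X chromosome was not examined, so its counts need not come from a Y chromosome. Both listed Xist transcripts, from the lncRNA that silences an X chromosome in female cells, were at 0 in all 3. The sex of the line was not tested.

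Genes known for their role in β cells often had a counted lncRNA beside them. The list holds 46 names of hormone, granule, glucose-sensing and transcription factor genes (Ero1lb and Ero1b name the same gene), and 33 names have a lncRNA transcript that overlaps them, is named for them or lies within 10 kb. These make 114 transcripts at 48 loci, of which 89 had a count above 0, 64 (56.1%) a mean count of at least 10 and 33 a mean count of at least 100. Among all lncRNA transcripts, the share with a mean count of at least 10 was 23.7%, and among antisense ones it was 30.5%. It was 80.0% on a list of imprinted lncRNAs, which shares Igf2os with this list, and 58.6% on a list of abundant nuclear lncRNAs. A high share was thus not particular to β-cell genes. The 64 transcripts lie at 24 named genes, 15 of them at Pcsk2, and 58 of the 64 lie on the strand opposite to the gene. Their median FPKM was 15.4, 13.2 and 12.2, beside 9.35, 7.96 and 7.54 over all transcripts with such a count, and the 114 transcripts together held 1.81 ± 0.202% of counts. The strand setting of the authors' counting is unstated, so reads of these lncRNAs and of the abundant messenger RNAs opposite them cannot be told apart.

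Among transcription factor genes, Mafa had the highest lncRNA. Mafa codes for an activator of insulin transcription in mature β cells. The antisense TCONS_00088788 on chromosome 15 had an FPKM of 2353, 2148 and 1860 and stood at the 97.6th percentile of the transcripts with a mean count of at least 10. It was highest in control 1 and lowest in control 3, as was the median FPKM of all transcripts with such a count (9.35, 7.96 and 7.54). At Nkx2-2, which keeps β cells from taking other islet fates, TCONS_00141103 of 6430503K07Rik had an FPKM of 75.8, 39.3 and 45.7. At Pdx1, a master regulator of pancreas and β cells, TCONS_00206490 of Plut had 61.6, 39.2 and 24.1. Both were also highest in control 1, and this isoform of Plut spread over more than 2-fold. The 10 transcripts at Pdx1 summed to an FPKM of 101.9, 86.3 and 71.3, a narrower range than that of the 1 isoform.

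Several transcripts lay at further factor genes. The 6 transcripts at Pax6, an islet and eye factor, summed to an FPKM of 131 ± 23.4, of which Pax6os1 made up 89.9 ± 16.1, and Paupar, the lncRNA beside Pax6, had 3.11 ± 0.910. Summed over the 4 and 10 transcripts there, FPKM was 100.7 ± 18.97 at Nkx2-2 and 86.5 ± 15.3 at Pdx1. Below these sums were those of the lncRNAs at Neurod1 (10.9 ± 5.25), Rfx6 (9.73 ± 1.72), Foxa2 (6.15 ± 0.930) and Isl1 (6.06 ± 1.78), which all code for islet factors. Those at Nkx6-1 and Hnf4a did not reach a mean count of 10. No lncRNA transcript of the table lies at Foxa1, Insm1, Mnx1 or Myt1.

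Granule genes carried the other high members. At Pcsk2, the prohormone convertase that cuts proinsulin and proglucagon, 21 transcripts are listed and 15 had a mean count of at least 10. The antisense TCONS_00148792 had an FPKM of 1028, 895 and 843, and TCONS_00148772 of Pcsk2os1 had 688, 645 and 595. Both fell in the same order of libraries as the Mafa antisense transcript, which is also the order of the median FPKM over all transcripts with such a count. The order is therefore not particular to these transcripts. Chga codes for the granule protein chromogranin A, and its antisense TCONS_00057309 had 220, 209 and 214, or 214 ± 5.34. Its CV was 2.49% on FPKM and 7.46% on TMM-scaled CPM, where the Mafa transcript had 5.43% and TCONS_00148792 had 1.62%.

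Slc30a8 codes for the zinc transporter of the insulin granule, and its antisense TCONS_00090991 had an FPKM of 298, 196 and 229 over an effective length of 15959 bases. That length makes it a larger part of the counts, at 8753, 6585 and 10477. The transcripts at Cpe (145 ± 29.9), which encodes the carboxypeptidase that trims insulin, and at Vgf (124 ± 52.5), a granule protein, rest on few reads. Their counts were 26, 29 and 62 and 27, 15 and 31, over 114 and 90.3 bases.

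Beside the insulin gene Ins2, the lncRNA Igf2os was high. Its 2 leading transcripts, TCONS_00233737 and TCONS_00233734, had an FPKM of 504, 550 and 485 and of 450, 472 and 320. All 5 Igf2os transcripts summed to 1024 ± 88.6. At Ins1 the 1 transcript had 0, 1 and 2 counts. Of the glucose-sensing and excitation genes, Abcc8 and Kcnj11, the subunits of the ATP-sensitive potassium channel, share TCONS_00230416 (37.4, 44.98 and 41.8), while those at Slc2a2 had 2, 7 and 8 counts. No lncRNA transcript lies at Glp1r, Gipr, Iapp, Ucn3, Scg3, Scg5, Cacna1c or Cacna1d.

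**Figure D4:**
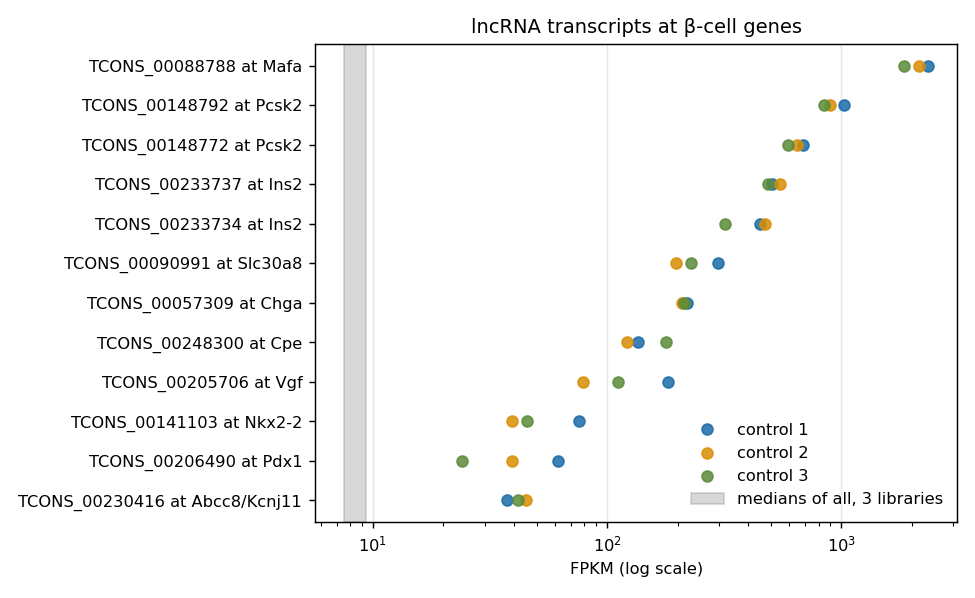
FPKM on a log scale in each control library for the 12 transcripts of the β-cell list with the highest mean FPKM among those with a mean count of at least 10; the grey band spans the medians of all such transcripts in the 3 libraries (7.54 to 9.35). All points lie to the right of the band, from the Mafa antisense transcript (1860 to 2353) down to the Abcc8 transcript (37.4 to 44.98).

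Few lncRNA transcripts are listed at markers of other cell types of islet and pancreas, which limits what can be seen there. No transcript lies at the δ-cell or endothelial genes, and none of those at PP, acinar, duct or fibroblast genes had a mean count of at least 10. At α-cell genes 3 of 4 transcripts did, at Irx2 and Ttr, with FPKM between 3.50 and 5.29, and the 1 at the glucagon gene Gcg had 0, 5 and 0 counts. The 1 transcript near a macrophage gene, TCONS_00037119 within 10 kb of Cd68, had 198, 649 and 768 counts over 76.1 bases, and its span holds 2 small structural RNA genes (Gm25835 and Gm22988) on the opposite strand. It is also antisense to Eif4a1 and Senp3, which are expressed in most cells. Among neuronal genes that β cells share, TCONS_00278355 at Syp, the gene of the vesicle protein synaptophysin, had a mean FPKM of 960, from 3003, 3279 and 4055 counts.

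Of the well-known nuclear lncRNAs, Malat1 was far above the rest per length. Its 3 spliced pieces, of 265 to 435 bases of effective length, summed to an FPKM of 29813, 20208 and 22960 and to 8783 ± 1527 CPM. Neat1, the scaffold of paraspeckles, had 4 transcripts, the longest over 23065 bases, which summed to an FPKM of 93.9, 76.2 and 83.3 and to 921 ± 38.2 CPM. Malat1 is mainly unspliced, so the table holds only these pieces of it, and the gap to Neat1 in FPKM is also one of piece length. Pvt1, the neighbour of Myc, summed over 21 transcripts to 84.6 ± 17.99, and Tug1 had 28.7 ± 2.89 from 9, 9 and 14 counts. Miat, another nuclear lncRNA, had 2.42 ± 1.09 over 9 transcripts, and Dlx6os1 was at 0 in all libraries.

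The 3 libraries agreed better over loci than over transcripts. Pearson's r of log2(CPM + 1) between libraries, across 3690 transcripts that are not independent, was between 0.828 and 0.848, and across 2660 loci between 0.959 and 0.964. Of the transcripts, 20.6% to 20.7% were over 2-fold apart in a pair of libraries, and of the loci 9.10% to 9.81%. The median CV of TMM-scaled CPM was 27.9% over transcripts and 19.8% over loci, and edgeR's biological coefficient of variation was 0.520 and 0.188.

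Transcripts that share a locus had the wider spread. Their median CV was 32.1% (n = 2348), against 22.2% for the 1342 transcripts alone at their locus. A CV over 100% was found for 207 of the 2348 and for 3 of the 1342. The median CV decreased with depth, from 41.1% at mean counts of 10 to 30 down to 8.69% at 1000 or more, and sharing transcripts were above lone ones in each bin of depth.

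**Figure D5:**
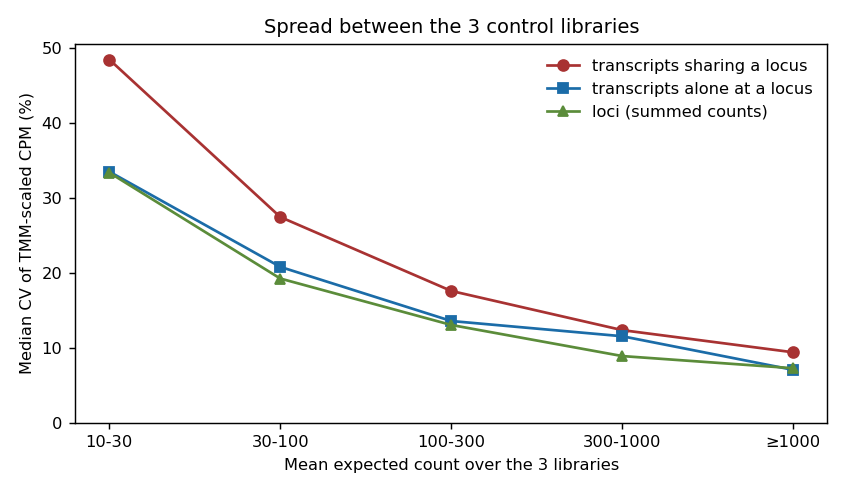
Median coefficient of variation of TMM-scaled CPM between the 3 control libraries against mean expected count, for transcripts that share a locus, transcripts alone at their locus and loci with counts summed. The transcripts that share a locus lie highest in every bin, at 48.5% for mean counts of 10 to 30 against 33.5% for lone transcripts and 33.4% for loci.

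The 5 most variable transcripts with a mean count of at least 100 lay at loci with steady totals. TCONS_00002008, antisense to March4, had 0.17, 1460 and 450 counts, while its locus of 3 transcripts had 2985, 3525 and 5046. TCONS_00065111 at Gm2762 had 388, 156 and 0, while its locus of 11 transcripts had 1358, 1520 and 1747. For these and for TCONS_00128284, TCONS_00141105 (6430503K07Rik) and TCONS_00237660 (6330403N20Rik), the transcript CV was between 99.97% and 127%, and the locus CV between 1.54% and 12.98%. In all, 7 transcripts with a mean count of at least 100 were at 0 in a library, none of them alone at a locus, and none of their loci was at 0. Zero counts of a single isoform at these depths therefore stood beside steady counts of its locus.

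The 5 least variable transcripts with a mean count of at least 100 ranked between 214 and 503 by counts among all 15589. TCONS_00199026 of 4933404O12Rik on chromosome 5 had 282, 280 and 372 counts and a CV of 0.198% after scaling. The other 4 of smallest CV were TCONS_00232643, TCONS_00249716 (Gm15681, opposite Cdh8), TCONS_00231589 (Gm16938) and TCONS_00136479 (Fcnaos), with CVs up to 1.19%. Among the 838 transcripts with such a mean count, such small spreads from 3 libraries are the low end of a range and do not single these transcripts out.

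The leading isoform was the same across libraries at most loci. Of 1318 loci with several transcripts and a summed mean count of at least 10, 877 (66.5%) had the same leading transcript in all 3 libraries. The leading transcript held a median of 86.5% of the counts at those loci and 64.2% at the others.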

How the data were processed

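Per the labels, RNA from untreated β-TC6 cells was depleted of ribosomal RNA and sequenced from directional libraries. Per the submitters' processing notes, bcl2fastq 2.17.1.14, Trimmomatic 0.30, HISAT2 2.0.1, HTSeq 0.6.1 and DESeq were used with mm10. The transcript assembler and quantifier, and likewise the strand setting, were not given in the sources used here. In the deposited table the authors give an expected count and an FPKM per transcript and library; only the control columns were read. Of control counts above 0, 51.2% are whole numbers within 0.001.

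Shares are of the deposited lncRNA counts. Effective length was recovered as the count divided by the product of FPKM and library total, in the units FPKM uses. Class medians use a mean count of at least 10. Expected counts were rounded for edgeR 4.0.16 (R 4.3.3), which gave TMM factors of 1.107, 0.964 and 0.938 and the common dispersion with an intercept only, after a check on simulated data. CVs use TMM-scaled CPM. DESeq2 1.42.0 gave alternative size factors. Of 10600 transcripts with an Ensembl identifier, 10462 have it in GENCODE M21. Small RNA genes (snRNA, snoRNA, scaRNA, rRNA, ribozyme, misc_RNA) were matched by span, and aligned locally with Biopython 1.88. Figures were drawn with matplotlib 3.10.9.

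Named are the 20 transcripts with most counts, the 20 of highest FPKM, the 10 loci of highest share, up to 12 members per list and the 5 of largest and of smallest CV with a mean count of at least 100, of which the text gives a selection. The libraries were picked by label, and the subject, members, lists and rules were chosen with earlier results of these data known. Effective-length limits, lone-locus spread and the family alignments were added after the data were seen. No intervals are given for shares, and the floor of 3 counts covers counting error only. A few list members and 1 sequence are not reported here.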

Additional observations from a re-analysis of the deposited data

How the results depend on the processing

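No paired analysis was possible because only 1 group was used and replicate numbers cannot pair its libraries with others. The cause of the changes below was not tested. With FPKM in place of counts, the top 10 held 92.9%, 1 transcript held 50%, and 57.7% of loci kept 1 leader. Without the transcript with the most counts, the top 10 held 33.2% and 21 transcripts held 50%. With an effective length of at least 200 bases (chosen after seeing the data, as were the 50-base and lone-locus settings), these were 31.8% and 21.3, and the differences in median log2 FPKM were 0.34 (antisense minus intergenic), 0.13 (known minus unannotated) and -0.33 (3 or more minus 2 exons). With no minimum count the differences were 0.46, -0.45 (intronic minus intergenic), -0.26 and -0.61, the median CV 78.1%, the biological coefficient of variation 0.725 and the share of loci with 1 leader 50.6%. At a mean count of at least 100 they were -1.12, -1.61, -0.96 and -1.49, with 33 list transcripts, a median CV of 13.5%, a coefficient of 0.259 and 78.0% of loci. On log2 CPM, antisense minus intergenic was 0.052, known minus unannotated 0.30 and exons -0.093. Per locus, the top 10 held 53.3%, intronic minus intergenic was -0.49, 31 loci of the list passed, the median CV was 19.8% and the coefficient 0.188. Lone loci had a median CV of 22.2%, and library size alone gave 28.9%. At a count of at least 10, 3690 transcripts were detected per library. Under 50 bases of effective length lay 31.0% of counts and 85.7% of FPKM, and under 200 bases 94.5% of FPKM. Leaving out each library in turn gave 0.35 to 0.42 for antisense minus intergenic, -0.020 (without control 1) to 0.046 for known minus unannotated, 21.4% to 22.7% for the median CV and 75.8% to 76.2% for loci with 1 leader, the last 2 over 2 libraries. The other 46 values moved by less than the spread between libraries or, for counts, by less than 1.5 times. The depth of 1839123 to 2870275 counts limits detection to about 1 CPM.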

Other observations

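Of the 12 gene names on the imprinted list, 8 have a lncRNA transcript and 7 of these had one with a mean count of at least 10. Igf2os was the highest of them, at a summed FPKM of 1024 ± 88.6. Airn, which silences Igf2r in mouse, had 120 ± 15.7, Nespas, antisense at the Gnas cluster, had 111 ± 18.3, and Snhg14, the host of snoRNA clusters, had 100.4 ± 25.6. Meg3 (69.99 ± 22.7) and Mirg (65.2 ± 24.7) of the cluster on chromosome 12 lay near each other, and Kcnq1ot1 had 23.8 ± 7.42. H19, which lies in the same domain as Igf2os, was at 0 counts in all 3 libraries, in a table that lists 1 spliced H19 transcript. Of 22 snoRNA and miRNA host names only Snhg14 and Snhg17 have a transcript, and Snhg17 had 6, 3 and 0 counts.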
